A study of Mus musculus with 6 samples.

Results

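A group of 10 genes that mark the mesothelium, the ovarian surface and simple epithelia was followed through 6 primary ovarian tumors of mice with and without host transglutaminase 2 (TG2, encoded by *Tgm2*). The genes were chosen by symbol: *Msln*, *Wt1*, *Muc16*, *Upk3b*, *Upk1b* and *Lrrn4* as mesothelial and ovarian surface genes, and *Krt7*, *Krt8*, *Krt18* and *Krt19* as simple keratins. All 10 were among the 20076 genes of the deposited table and among the 19667 that were tested. RNA enriched for poly(A) came from whole orthotopic tumors of 3 wild-type (WT) C57BL/6 mice and 3 *Tgm2* knockout mice, taken 6 weeks after ID8 cells lacking *Trp53* and *Brca1* (ID8 *Trp53-/- Brca1-/-*) had been placed under the bursa of the ovary. Both groups received this one cell line and the deletion of *Tgm2* was in the host alone, so the cancer cells could supply *Tgm2* transcripts in either group. The mice were young adults when used, and each library is labelled as the tumor of 1 mouse.

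ID8 is a cell line derived from mouse ovarian surface epithelium, the single layer that covers the ovary and is continuous with the mesothelium of the peritoneum. Mesothelial cells are unusual in carrying epithelial keratins together with the mesenchymal filament vimentin, and they bear mesothelin and CA125, surface proteins that bind each other and have a role in the spread of ovarian cancer over the peritoneum. Keratin filaments are built from pairs of a type II and a type I chain, such as keratin 8 with keratin 18, the first pair of simple epithelia, and keratin 7 with keratin 19. The tumors can also hold host mesothelium, remaining ovary, oviduct and stroma, and in bulk RNA fewer cells of a type and less RNA per cell cannot be told apart.

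*Krt8* and *Krt18*, partners in the first keratin pair, lie back to back on chromosome 15 of GRCm38 with 23697 bases between them, and *Krt7* lies on the same chromosome. The transcripts of *Krt8* and *Krt18* are set against each other in the results, and those of *Krt7* against *Krt19*. The sequences just before an annotated transcript start of each of these 3 keratin genes of chromosome 15 are shown. They come from RefSeq on GRCm38.p6, in whose table of promoters 6 of the 10 members were found. Each is written 5′ to 3′ on the strand of the gene, with GC boxes (GGGCGG or its reverse complement CCGCCC, the letters bound by Sp1) in capitals, and it ends where GENCODE M21 places the first exon of a coding transcript. *Krt7* is shown from chr15:101412153-101412401 on the plus strand, *Krt8* from chr15:102004483-102004592 on the minus strand and *Krt18* from chr15:102027966-102028179 on the plus strand. The stretch of *Krt7* lies inside the span that GENCODE M21 gives this gene, which begins at 101411043, so it precedes a start further downstream.
Krt7: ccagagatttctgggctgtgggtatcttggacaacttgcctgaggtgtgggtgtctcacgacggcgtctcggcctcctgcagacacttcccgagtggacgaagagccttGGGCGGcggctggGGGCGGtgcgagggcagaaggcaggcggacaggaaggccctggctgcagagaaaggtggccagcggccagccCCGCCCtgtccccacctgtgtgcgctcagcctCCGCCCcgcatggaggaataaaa
Krt8: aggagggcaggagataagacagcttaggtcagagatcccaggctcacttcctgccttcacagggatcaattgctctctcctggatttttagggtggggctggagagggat
Krt18: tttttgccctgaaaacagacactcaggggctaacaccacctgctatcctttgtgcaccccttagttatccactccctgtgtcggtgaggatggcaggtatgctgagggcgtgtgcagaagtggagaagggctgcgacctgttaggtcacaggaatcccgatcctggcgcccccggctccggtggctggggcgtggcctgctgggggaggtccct
In the 250 bases searched for each gene, *Krt7* held 4 GC boxes, while *Krt8* and *Krt18* held 0. Of these bases, 140 for *Krt8*, 36 for *Krt18* and 1 for *Krt7* lie in annotated exons and are not shown. Among 32851 mouse promoters of 250 bases, 32.7% held at least 1 GC box on either strand. None of the 3 held the letters of an AP-1 site (TGACTCA or TGAGTCA, in 4.46% of promoters), a TATA box (TATAAA or TTTATA, in 12.4%) or a CCAAT box (CCAAT or ATTGG, in 33.8%).

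Values are normalized counts, the authors' estimated gene counts divided by a size factor for each tumor. Their sums ran from 32316613 in knockout tumor 1 to 37717165 in knockout tumor 3, and steps between low values give an estimated 33.3M to 36.9M reads per tumor. The lowest value of any member, that of *Krt7* in knockout tumor 3, rested on an estimated 314 reads, so the spread between tumors and not depth sets the error. *Tgm2* itself, which checks the genotype labels, had a mean of 13437 ± 1429 normalized counts in WT mice and 6694 ± 1272 in knockout mice (SD, n = 3), with no overlap (p = 0.1 by an exact two-sided permutation test, and 3 against 3 can give none smaller).

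Some libraries carried transcripts of other epithelia. WT tumor 3 held 8047 normalized counts of *Epcam*, an adhesion protein of most epithelia that mesothelium largely lacks, and the other 5 tumors held 90.5 to 1307. It was also highest for *Cdh1*, *Muc1*, *Muc4*, *Pax8* and *Wnt7a*. Knockout tumors 1 and 2 held 37108 and 55944 normalized counts of *Ovgp1*, the oviduct glycoprotein, and the other 4 held 91.0 to 9244. Knockout tumor 1 and WT tumor 1 stood apart for *Hsd3b1*, a steroid-forming enzyme of the ovary, at 25704 and 5526 beside 1.07 to 68.1 elsewhere. The labels give the cell type as cancer cells, but transcripts known from ovary and oviduct were present too, and their part in the values of the members was not tested beyond the fits with a covariate given with the cell type lists.

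Every member was expressed in every tumor. Per length, in normalized counts per kilobase of the longest coding transcript averaged over the 6 tumors, the level was highest for *Krt19* at 9154, followed by *Krt8* at 7701, *Wt1* at 5475, *Krt18* at 5006, *Msln* at 2779 and *Upk3b* at 1910.1. *Krt7*, *Upk1b* and *Lrrn4* were at 407, 388 and 269.7, and *Muc16*, whose longest transcript has 25437 bases, was lowest at 40.0. *Krt19* was above *Krt8*, *Krt18* above *Msln* and *Lrrn4* above *Muc16* in all 6 tumors. Other neighbours in this order traded places in some tumors: *Wt1* was above *Krt18* in 3 of 6 (mean log2 ratio per kilobase 0.15 ± 0.57, SD over 6 tumors), and *Krt7* above *Upk1b* in 4 of 6 (-0.16 ± 0.98). *Krt8* over *Wt1*, *Msln* over *Upk3b* and *Upk3b* over *Krt7* held in 5 of 6, and *Upk1b* over *Lrrn4* in 4 of 6.

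The comparison of the groups asks whether tumors grown without host TG2 carry these genes at another level. All 4 keratins had lower means without host TG2, with fitted fold changes of 0.414 to 0.757. Among them *Krt7* turned to 0.062 on the log2 scale with a white adipocyte covariate. The mesothelial genes were divided, 4 higher and 2 lower. For *Wt1*, *Muc16* and *Upk3b* among the higher the direction turned when 1 tumor was left out. In limma on log2(value + 1), with adjustment over all 19667 genes, 0 of the 10 passed the limits (adjusted p under 0.05 and at least 1 in either direction on the log2 scale), and among all tested genes 20 passed as higher (0.102%) and 0 as lower (0%). Before adjustment 1 member, *Upk1b*, had a p under 0.05, where 5.78% of all genes did (2.38% lower, 3.4% higher). The groups were apart in 3 of 10 members, *Upk1b*, *Krt8* and *Krt19*, all with the knockout tumors lower; of all tested genes 10.5% were apart, 5.33% with the knockout tumors lower and 5.18% with them higher. A negative fold change was found for 6 of 10 members and for 52.7% of all genes. The median log2 fold change was -0.32 over the members, -0.47 over the keratins and 0.23 over the mesothelial genes, beside -0.027 over all genes tested.

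**Figure D1:**
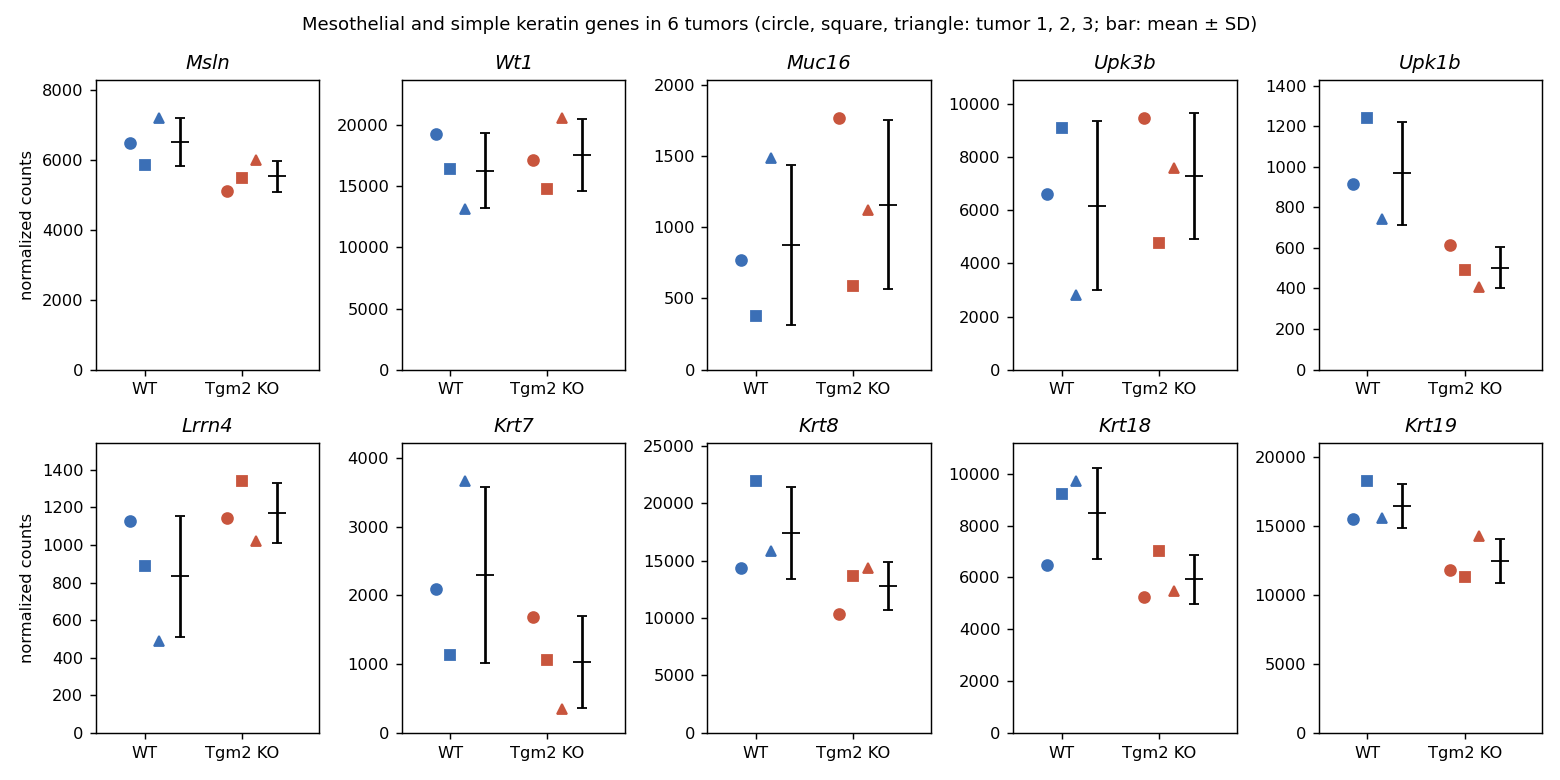
Normalized counts of the 10 genes (vertical axes, each from 0) in 3 WT tumors (blue) and 3 *Tgm2* knockout tumors (red); circles, squares and triangles are tumors 1, 2 and 3, and bars are the mean ± SD. The groups are apart for *Upk1b*, *Krt19* and, by a narrow margin, *Krt8*, and they overlap for the other 7 genes.

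*Krt8* (chromosome 15, 101996698 to 102004482, minus strand, 9 exons) encodes the type II keratin of simple epithelia. WT mice gave 14387, 21948 and 15814 normalized counts and knockout mice 10373, 13629 and 14318. The groups were apart, but the highest knockout tumor and the lowest WT tumor were almost level. By limma the estimate was -0.43 on the log2 scale, with a standard error of 0.26, a 95% interval of -1.03 to 0.16 and an adjusted p of 0.891, and it was -0.25 without WT tumor 2, the highest. *Krt18* (chromosome 15, 102028180 to 102032027, plus strand, 7 exons), its type I partner, gave 6464, 9217 and 9722 in WT mice and 5251, 7017 and 5489 in knockout mice. Here knockout tumor 2 was above WT tumor 1, so the groups overlapped, and the estimate was -0.51 (standard error 0.23, interval -1.04 to 0.03, adjusted p = 0.881).

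The ratio of the partners to each other was compared next. For each count of *Krt18* there were 2.23, 2.38 and 1.63 of *Krt8* in WT mice and 1.98, 1.94 and 2.61 in knockout mice. The ratio was lowest in WT tumor 3 and highest in knockout tumor 3, and the groups overlapped, with a mean log2 difference of 0.072 and a pooled SD of 0.27. The difference had no settled sign, at -0.095 without WT tumor 3, -0.066 without knockout tumor 3 and 0.18 without WT tumor 2. The ratio of *Krt8* to *Krt19* spanned less, from 0.878 to 1.21 with a pooled SD of 0.21. Across the 6 tumors *Krt8* and *Krt18* had a Pearson's r of 0.78 and a Spearman's rho of 0.77 (exact permutation p = 0.0472 and 0.103, adjusted over 45 pairs 0.586 and 0.716). *Krt8* and *Krt19* were the closest keratin pair, with r = 0.85 and rho = 0.94 (exact permutation p = 0.0278 and 0.0167, with the same adjusted values). Without the 2 tumors farthest from the median of *Krt8*, r was 0.71 and 0.76. These correlations and their permutations pool both groups, so the lower means of these keratins in knockout tumors enter into them. Correlation within a group was not tested.

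*Krt19* (chromosome 11, 100140810 to 100148665, minus strand, 6 exons) encodes the smallest type I keratin, which lacks the usual tail. It reached 15464, 18236 and 15516 normalized counts with host TG2 and 11810.5, 11260.2 and 14269.6 without it. All 3 knockout values were under all 3 WT values, with means of 16405 ± 1586 and 12447 ± 1602 (SD, n = 3). The estimate from limma was -0.40 (standard error 0.22, interval -0.90 to 0.10, adjusted p = 0.889).

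*Krt7* (chromosome 15, 101411043 to 101430313, plus strand, 9 exons), the type II keratin of ducts and simple glandular epithelia, was the most variable member; *Gm671*, which overlaps it on the other strand, was not analysed here. Its normalized counts were 2099, 1129 and 3666 in WT mice but 1687, 1065 and 342 in knockout mice. The groups overlapped, and the highest tumor was 10.7-fold above the lowest, where the other 9 members spanned 1.41-fold to 4.75-fold. By limma the estimate was -1.27 with a standard error of 0.61 (interval -2.66 to 0.11, adjusted p = 0.881), which ran from -1.77 without knockout tumor 1 to -0.62 without knockout tumor 3 when 1 tumor was left out (-0.86 without WT tumor 3). For each count of *Krt19* there were 0.136, 0.0619 and 0.236 of *Krt7* in WT mice and 0.143, 0.0946 and 0.0240 in knockout mice. Keratin 7 transcripts were thus scarcest beside those of keratin 19 in knockout tumor 3 and most plentiful in WT tumor 3, the tumor rich in *Epcam*.

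**Figure D2:**
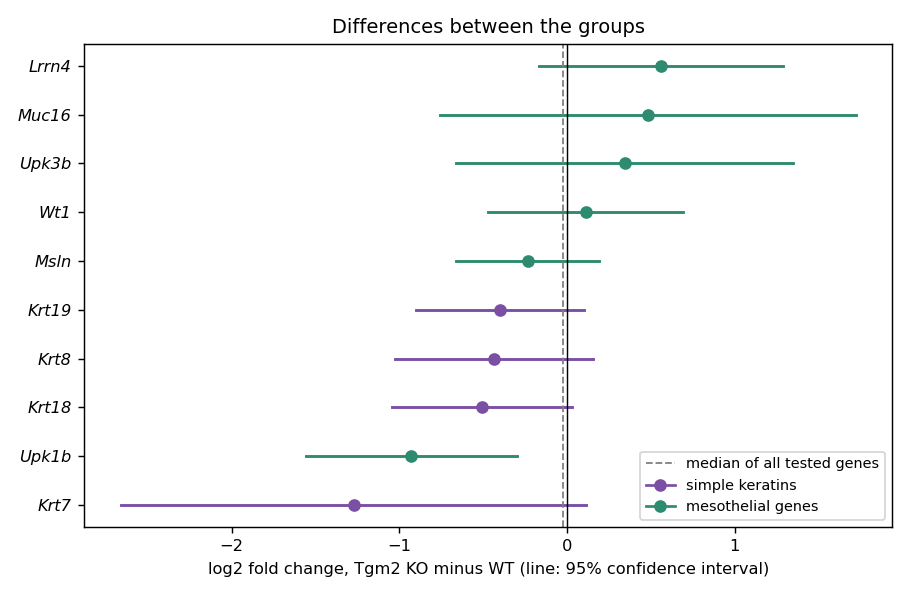
Log2 fold change (*Tgm2* knockout minus WT, horizontal axis) of each member, with lines for the 95% confidence interval from limma; keratins are purple, mesothelial genes green, and the dashed line is the median of all tested genes. The 4 keratins lie left of 0 with intervals that reach past 0, *Upk1b* has an interval below 0 before adjustment, and 4 mesothelial genes lie right of 0.

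Of the mesothelial surface proteins, mesothelin is encoded by *Msln* (chromosome 17, 25748613 to 25754378, minus strand, 16 exons) and is held in the membrane by a lipid anchor. WT tumors 1 to 3 carried 6469.6, 5858 and 7208 normalized counts, and knockout tumors 1 to 3 carried 5107, 5465 and 5995. Knockout tumor 3 was above WT tumor 2 and the rest were apart, with an estimate of -0.24 (standard error 0.19, interval -0.66 to 0.19, adjusted p = 0.898). *Muc16* (chromosome 9, 18495455 to 18674530, minus strand, 78 exons in the longest transcript) encodes the membrane mucin CA125, the partner of mesothelin and a serum marker of ovarian cancer. Its counts were 773, 373 and 1485 with host TG2 and 1771, 589 and 1119.5 without it. These ranges overlapped nearly in full, and the estimate of 0.48 had a standard error of 0.54 (adjusted p = 0.914) and no settled sign, at -0.025 with WT tumor 2 left out and 0.97 with WT tumor 3 left out. From tumor to tumor there were 2.88 to 15.7 counts of *Msln* for each of *Muc16*.

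The uroplakins are membrane proteins best known from the bladder lining, and mesothelial cells express *Upk1b* and *Upk3b*. *Upk1b* (chromosome 16, 38773184 to 38800328, minus strand, 8 exons), which encodes a tetraspanin, showed 914, 1243 and 745 normalized counts in WT mice against 613, 491 and 407 in knockout mice. The groups were apart, with a fitted fold change of 0.525. By limma the estimate was -0.93 (standard error 0.28, interval -1.56 to -0.30, unadjusted p = 0.00909, adjusted p = 0.664). It stayed between -1.10 and -0.73 when any 1 tumor was left out. *Upk3b* (chromosome 5, 136038496 to 136046487, plus strand, 6 exons) had 6634, 9114 and 2805 in WT mice against 9502, 4789 and 7614 in knockout mice. WT tumor 3 was lowest and the groups overlapped, and the estimate of 0.34 (standard error 0.44, adjusted p = 0.928) became -0.15 without that tumor. The 4 uroplakin genes of the bladder list (*Upk1a*, *Upk2*, *Upk3a* and *Upk3bl*) summed to 31.9, 59.7 and 449 in WT mice and 1115, 1171 and 5.40 in knockout mice. In knockout tumors 1 and 2 most of this was *Upk1a*, at 1101 and 1024, and of the 3 tested 0 were apart (median 0.45, *Upk1a* 1.70, *Upk2* 0.45, *Upk3bl* -2.50).

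*Wt1* (chromosome 2, 105126529 to 105173616, plus strand, 10 exons) encodes a zinc finger transcription factor of mesothelium, ovarian surface and serous ovarian cancer. With 19281, 16451 and 13131 normalized counts in WT mice and 17196, 14803 and 20641 in knockout mice it was at rank 255 of the 20076 genes by the mean of all 6 tumors. Its groups overlapped, with an estimate of 0.11 (standard error 0.25, interval -0.47 to 0.69, adjusted p = 0.958) that turned to -0.035 without WT tumor 3 and to -0.012 without knockout tumor 3. *Lrrn4* (chromosome 2, 132868305 to 132880891, minus strand, 5 exons), which encodes a leucine-rich repeat membrane protein, had 1126, 889.5 and 488 against 1144, 1341 and 1024. WT tumor 1 reached into the knockout range, and the estimate of 0.56 (standard error 0.32, interval -0.17 to 1.29, adjusted p = 0.891) was lowest, at 0.22, with WT tumor 3 left out and highest, at 0.82, with WT tumor 1 left out.

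The members differed in how steady they were within a group. On the log2 scale the residual SD was 0.13 for *Msln* and 0.16 for *Krt19*, at percentiles 3.73 and 6.41 of all tested genes, and 0.90 and 1.03 for *Muc16* and *Krt7*, at percentiles 76.7 and 80.7. The mean log2 value of the 4 keratins was 12.86, 12.97 and 13.24 for the WT mice and 12.49, 12.51 and 12.11 for the knockout mice. That of the 6 mesothelial genes was 11.53, 11.38 and 11.16 for the WT mice and 11.64, 11.17 and 11.43 for the knockout mice. The keratin means were thus apart and the mesothelial means overlapped, and WT tumor 3 was highest of all tumors for the first and lowest for the second. By summed normalized counts of the keratins, however, WT tumor 2 was highest, at 50530 beside 44718 in WT tumor 3. How often other sets of 4 genes are apart was not tested. As a share of all normalized counts the 10 members made up 0.212%, 0.239% and 0.208% with host TG2 and 0.199%, 0.169% and 0.189% without it. The groups were apart for this share but not for the summed normalized counts, where knockout tumor 3 (71219) was above WT tumor 3 (70581).

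Other keratins mostly had few counts, and bare values in parentheses from here on are log2 fold changes, knockout minus WT. Of a list of 32, 22 were tested, 11 with positive and 11 with negative fold changes (median 0.012), and 0 passed. The groups were apart in 3 of them, each with the knockout tumors lower; apart from *Krt79* these were named after their values were seen. *Krt79*, a type II keratin of hair follicle and gland ducts, had 1270.3, 860.4 and 212 normalized counts with host TG2 and 161, 158 and 102 without it (-2.15 on the log2 scale, adjusted p = 0.649). *Krt23*, a type I epithelial keratin, had 299, 389 and 361 against 62.5, 245 and 38.9 (-2.03, adjusted p = 0.712). *Krt17*, a type I keratin of basal and injured epithelia, had 295, 60.4 and 40.6 against 32.2, 29.4 and 20.5, so that WT tumor 1 carried most of its difference. *Krt14*, a basal keratin and the one with the most counts, overlapped with 2999, 1876 and 586 against 1064, 2293 and 1771, and *Krt80* had an estimate of -0.55. Among 10 other intermediate filament genes and filament linkers 5 were positive and 5 negative (median -5.8e-05), with 0 apart and 0 passed. *Vim*, which encodes vimentin, had 60519.8, 62432 and 33882 against 39505, 48528 and 63591 (-0.024), lamin A/C gene *Lmna* had 0.16 and plectin gene *Plec* 0.02.

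**Figure D3:**
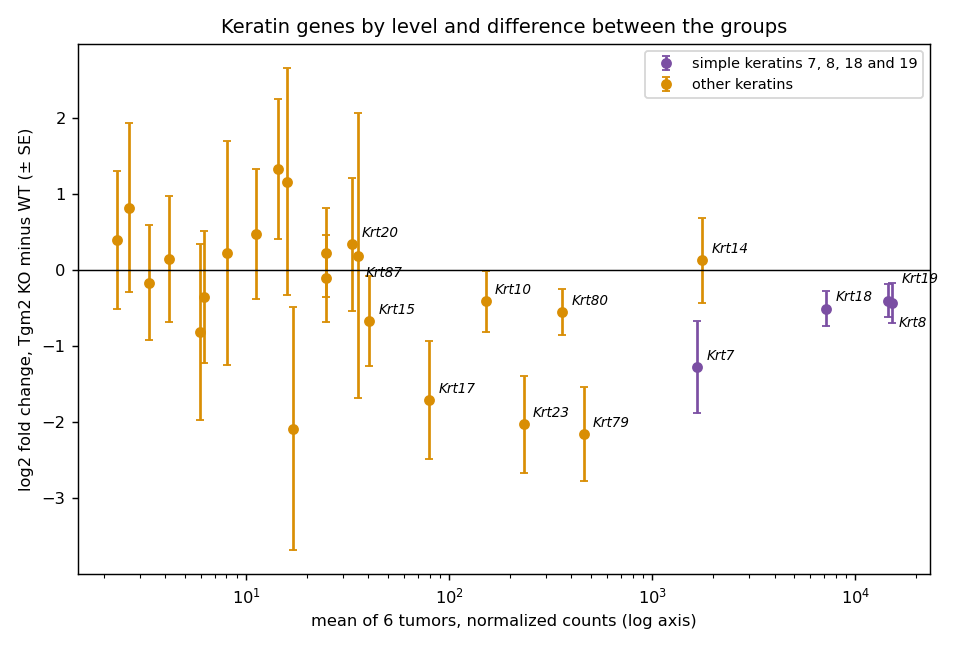
Log2 fold change (*Tgm2* knockout minus WT, vertical axis, bars are ± standard error) against the mean normalized count of 6 tumors (horizontal log axis) for the 4 simple keratins (purple) and 22 other keratins (orange). *Krt8*, *Krt18* and *Krt19* lie at the abundant end, and all 4 simple keratins lie below 0.

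Further mesothelial genes had no common direction. Of 17 listed, 15 were tested, 10 positive and 5 negative with a median of 0.073, 0 apart and 0 passed. The most abundant were *Ildr2* (0.32), *Podxl* for podocalyxin (0.82, adjusted p = 0.858) and *Lgals7* for a galectin (-0.20). *Podxl* had 12128, 7964 and 6025 normalized counts with host TG2 and 15132, 9987 and 21361 without it. In the list of ovarian surface and Müllerian genes 12 of 15 were positive (median 0.20), again with 0 apart and 0 passed. *Amhr2*, the receptor of anti-Müllerian hormone, had 15929, 22431 and 18406 against 14265, 20677 and 26497, and *Aldh1a1*, a retinal dehydrogenase, 11251, 12675 and 7536 against 32899, 12277 and 22229.9 (1.02, adjusted p = 0.805).

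Genes of epithelial adhesion and junctions, many of which mesothelium lacks, were negative in 20 of 27 (median -0.31), and 0 passed. WT tumor 3 stood above all others here: the mean log2 value of the list was 7.99, 8.79 and 10.81 for the WT mice and 9.32, 8.94 and 7.92 for the knockout mice, so that WT tumors 1 and 2 lay within the knockout range. The most abundant, *F11r*, *Jup* and *Cgn*, had -0.28, 0.074 and 0.22. In 2 genes, named after their values were seen, the groups were apart. *Cldn4*, a tight junction claudin, had 665, 198 and 1881 normalized counts with host TG2 and 68.2, 71.6 and 23.7 without it (-3.66, standard error 0.80, adjusted p = 0.406). *Dsg2*, a desmosomal cadherin of the junctions that anchor keratin filaments, had 3554, 2025 and 2804 against 1647, 1321 and 1868 (-0.77, adjusted p = 0.733). Mucins other than *Muc16* were mostly in WT tumor 3: the list summed to 139.7, 459 and 11110.3 in WT mice and 1217, 265 and 118 in knockout mice. Their median over 6 tested genes was -1.55 with 0 apart, and *Muc1*, *Muc4* and *Muc20* reached 4636, 5157 and 1108 in that tumor.

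**Figure D4:**
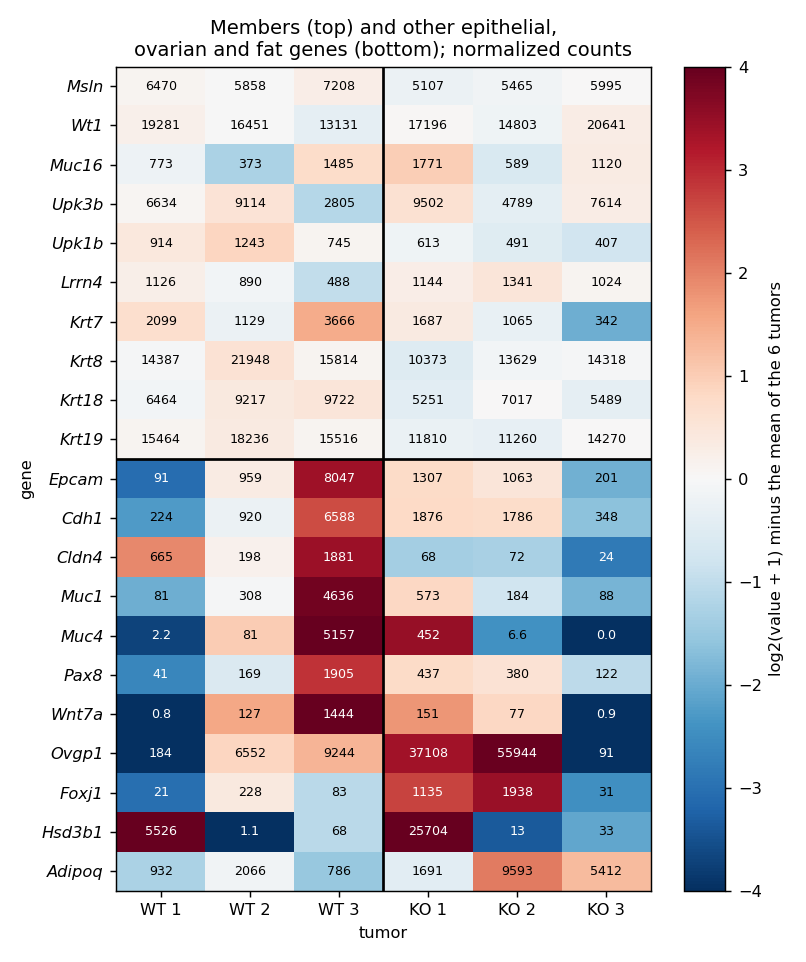
Normalized counts (numbers in the cells) and log2(value + 1) minus the mean of the 6 tumors (color, from -4 to 4) for the 10 members (above the line) and 11 other genes of epithelium, oviduct, ovary and fat, picked after their values were seen. *Epcam*, *Cdh1*, *Muc1* and *Muc4* are highest in WT tumor 3 and *Ovgp1* and *Foxj1* in knockout tumors 1 and 2, while most members differ less between tumors.

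Levels of other epithelia are given beside the members because simple keratins are known from them too. Adhesion genes summed to 53846, 49932 and 91904 normalized counts in WT mice and 49715, 48444 and 52352 in knockout mice. The 10 genes of oviduct and ciliated epithelium, all positive (median 1.21) with 0 apart, summed to 1754, 10073 and 11021 in WT mice and 42114, 63083 and 1695 in knockout mice, and *Ovgp1*, *Foxj1* (a regulator of motile cilia) and *Tppp3* had 1.36, 2.47 and 0.28. Of the keratins, *Krt8* and *Krt19* were lowest in knockout tumors 1 and 2, which held the most oviduct transcripts, whereas *Krt18* was lowest in knockout tumors 1 and 3 and *Krt7* in knockout tumor 3, which held the fewest. In fits added after the data were seen, with the mean of the adhesion list as a covariate, the estimates for *Krt7*, *Krt8*, *Krt18* and *Krt19* were -0.97, -0.46, -0.44 and -0.43. With the mean of the oviduct list they were -1.71, -0.42, -0.60 and -0.34.

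Host tissue also differed between tumors. Granulosa and steroidogenic genes summed to 24273, 15469 and 7974 in WT mice and 72105, 11816 and 12736 in knockout mice, with a median of 0.88 and 0 of 10 apart (*Cyp11a1* 0.52, *Star* -0.0095, *Hsd3b1* 1.33). White adipocyte genes summed to 55866, 69142 and 44790.1 in WT mice and 62250, 226048 and 136031 in knockout mice. All 15 were positive (median 1.65), 8 were apart and 1, *Lep*, which encodes leptin, passed (*Lep* 3.74, *Cfd* 1.65, *Lpl* 0.48, *Scd1* 1.43). With the mean of this list as a covariate the estimates were -1.05 for *Krt8*, -0.97 for *Krt18*, 2.58 for *Muc16*, 0.062 for *Krt7*, 0.79 for *Upk3b*, 0.25 for *Lrrn4* and 0.25 for *Wt1*. Those for *Krt19*, *Msln* and *Upk1b* were -0.46, -0.25 and -0.84, and 0 of the 10 members passed. The mean log2 value of this list was itself apart, at 9.89, 10.43 and 9.88 in WT mice and 10.98, 12.63 and 11.92 in knockout mice. Standard errors of the members rose with this covariate, for *Krt19* from 0.22 to 0.42 and for *Krt7* from 0.61 to 1.16. This fit cannot tell fat from host genotype, and the part of fat in these values was not tested further.

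Leukocyte genes summed to 32837, 22911 and 17153 in WT mice and 21601, 39093 and 42474 in knockout mice (median 0.53, 0 of 10 apart, *Laptm5* 0.54, *Lcp1* 0.51, *Arhgdib* 0.26). With the mean of this list as a covariate the estimates were -0.58 for *Krt7*, 1.06 for *Muc16*, 0.26 for *Lrrn4*, 0.20 for *Upk3b* and -0.038 for *Wt1*, while those for *Krt8*, *Krt18*, *Krt19*, *Msln* and *Upk1b* were -0.54, -0.43, -0.44, -0.25 and -0.87. Macrophage genes had a median of 0.45 (0 of 10 apart, *C1qa* 0.48, *C1qb* 0.39, *C1qc* 0.53). Plasma cell genes outside the immunoglobulin loci had 1.45, with 8 of 10 apart and 2 passed, *Jchain* (4.80) and *Mzb1* (4.27), beside *Xbp1* (0.51) and *Txndc5* (0.41). These immune lists had positive medians. Fibroblast genes had 0.42 (0 of 10 apart, *Col1a1* 0.63, *Col1a2* 0.68, *Col3a1* 0.57) and endothelial genes 0.44 (1 apart in each direction, *Pecam1* 0.47, *Eng* 0.53, *Esam* -0.074). Proliferation genes had 0.26 (0 of 15 apart, *Mki67* 0.38, *Top2a* 0.34, *Pcna* -0.0028). Gut epithelium genes had -0.35 over 6 tested (*Vil1* -1.39, *Lgals4* -1.96, *Gpa33* 0.042) and summed to no more than 686 in any tumor.

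**Figure D5:**
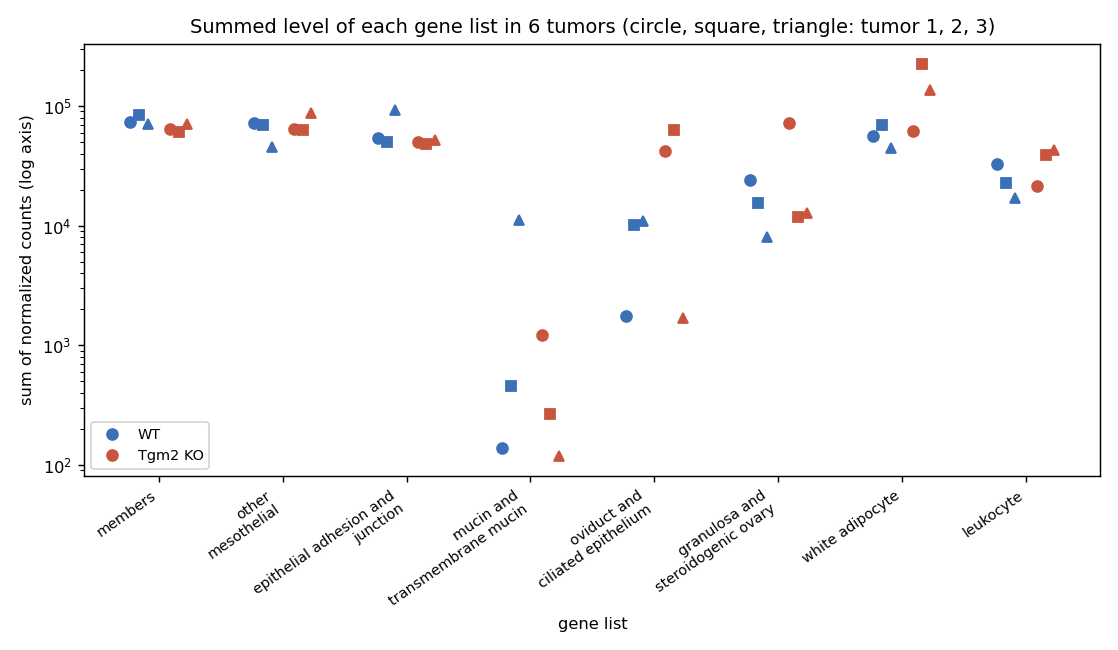
Sum of normalized counts (vertical log axis) of gene lists in 3 WT tumors (blue) and 3 *Tgm2* knockout tumors (red), with circles, squares and triangles for tumors 1, 2 and 3. The members lie between 60449.6 and 84459, while the mucin and oviduct lists differ many times over between tumors of one group.

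The 5 genes most like the mean log2 value of the members over the 6 tumors were *Gm31166*, *Gm10120*, *Aqp10-ps*, *Thpo* and *Gm7451*, with Pearson's r of 0.977 to 0.988 among 19657 genes compared, of which 30 had r above 0.95. *Thpo*, which encodes thrombopoietin, had 115, 87.7 and 77.5 normalized counts with host TG2 and 70.4, 37.2 and 32.8 without it. The other 4 had at most 43.4 in any tumor, so their likeness rests on few reads. All 5, *Thpo* among them, were picked as the highest of 19657. How many unrelated genes reach such an r over 6 tumors was not tested.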

How the data were processed

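The authors quantified paired reads with kallisto (0.46.2, with GRCm38 as the build, per the submitters' processing notes), collapsed transcripts to genes, left out genes of low expression and divided by median-of-ratios size factors. The annotation release was not given in the sources used here. The deposited values are labelled TPM, but their sums show them to be a signal in normalized counts, neither TPM nor whole counts. The authors' test needs raw counts, so limma 3.58.1 (R 4.3.3) was fitted instead to log2(value + 1), which understates changes of low genes. Genes at 1 or more in 3 or more tumors were kept. The model had no covariate and a variance trend, and p was adjusted by Benjamini and Hochberg over all 19667 genes. Passing meant adjusted p under 0.05 and an absolute log2 fold change of 1 or more.

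In simulated data of 19667 genes, 65% of 100 genes changed by a log2 fold change of 2 and 86% of 100 changed by 4 were recovered, with 7 other genes called. Only increases were simulated, and changes as small as the members' main estimates were not. Columns were matched to tumors by library name. Litters and cages are not given, so p-values measure the spread between these tumors. The members, lists and tests were chosen with earlier results of these data known. Named genes were *Tgm2*, the 10 members, the 3 most abundant tested and any passing genes of 17 companion lists, and the 5 genes most correlated with the members; further genes were picked with their values in view. Alternatives varied the pseudocount, filter, scaling, variance trend, tumor weights, replicate block and covariate, and left out each tumor. Positions are from GENCODE M21 (GRCm38), matched by symbol. The worth of 1 read was estimated from 4097 genes with 1 transcript.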

Additional observations from a re-analysis of the deposited data

How the results depend on the processing

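Of 200 estimates for single members under 20 other fits, 194 kept their direction and 0 passed the limits of limma. Fits that changed only the filter, the variance trend or the replicate block return the same estimate by design, so direction could not turn in them. Scaling by median of ratios repeats the authors' own scaling and left the estimates nearly unchanged. The count of 194 is therefore no measure of how firm the directions are. Direction turned for *Wt1* with a leukocyte covariate (-0.038), for *Krt7* with a white adipocyte covariate (0.062), and on leaving out 1 tumor for *Wt1* (-0.035 without WT tumor 3, -0.012 without knockout tumor 3, up to 0.24), *Muc16* (-0.025 without WT tumor 2, up to 0.97) and *Upk3b* (-0.15 without WT tumor 3, up to 0.70). With the adipocyte covariate the median of the 10 members was -0.094 and that of the keratins -0.71. Leaving out 1 tumor gave medians of -0.38 to -0.24 for the members, -0.62 (without WT tumor 1) to -0.38 for the keratins and -0.091 (without WT tumor 3) to 0.36 for the mesothelial genes. The groups were apart, with the knockout tumors lower, in 3 to 5 members when 1 tumor was left out (5 without WT tumor 2, where 9.96% of all genes were), but with fewer tumors the share of all genes was also higher, at 7.74% to 13.1%. *Lrrn4* was apart with the knockout tumors higher without WT tumor 1 or knockout tumor 3. With knockout lower, they were apart in 4 members after scaling to the same sum or by quantiles, where *Msln* joined the other 3. The causes were not tested.

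In the whole table the 20 genes that passed as higher by limma became 5 with the replicate block, 4 without the variance trend and 11 with the leukocyte covariate. With the adipocyte covariate they became 0, and 1712 genes had an unadjusted p under 0.05 by limma there. The mean of the adipocyte list was itself apart between the groups, so that fit cannot tell fat from host genotype. Without 1 tumor the number was 2 (without WT tumor 2) to 14, with 7 without WT tumor 1, 13 without WT tumor 3, 11 without knockout tumor 1 and 11 without knockout tumor 2, and 0 to 1 passed as lower. Replicate numbers did not pair the tumors (correlations of deviations -0.20, 0.28 and -0.31), and the block changed no call of a member. Depth was similar in all tumors, and 3 tumors per group limit each comparison.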
